A study of Mus musculus with 10 samples.

Results

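The genes examined here were 43 genes of amino acid catabolism and one-carbon metabolism, read in the livers of mouse fetuses that lacked the microRNA gene Mir483. They were listed by name, with no threshold on their values but with earlier results of these data known, as enzymes of hepatic amino acid breakdown and of the methyl cycle, with the asparagine-degrading enzyme gene Aspg included. The deposited table holds 55401 genes, of which 14098 had enough reads to be tested, and 42 of the 43 genes were among them. The exception was Tdo2. The study set livers of 5 Mir483Pat-KO female fetuses at E18.5, shortly before birth, against those of 5 wild-type (WT) female littermates. In the Mir483Pat-KO fetuses, a constitutive deletion of Mir483 was inherited from the father. The deletion was made with Cre in C57BL/6N embryonic stem cells, the colony was kept by crossing to C57BL/6J, and every cell of the fetus carries the deletion, so that an effect on the liver from outside it cannot be told apart from one within it. Total counts per library ranged from 10831350 to 14765880, and values are CPM (counts per 1e+06 counts, the usual scale for library depth) scaled between libraries by TMM, given for replicates 1 to 5 in that order.

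The adult liver is the main site of amino acid breakdown. Nitrogen is first removed or transferred by aminotransferases, dehydratases and lyases, and the carbon skeletons are then oxidised or turned into glucose. Tyrosine, tryptophan and histidine each have a dedicated chain of enzymes found mostly in hepatocytes. Serine, glycine and histidine hand single carbon units to folate, whereas methionine provides the methyl groups used through S-adenosylmethionine. The resulting homocysteine is either methylated again or passed to cysteine by transsulfuration. In fetal rodent liver much of this programme is still low, Tat and Tdo2 are known to be switched on mainly around birth or after it, and the organ is at the same time a site of blood formation.

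The deleted gene yields 2 mature microRNAs, which are shown because their seeds (bases 2 to 8, in capitals) define the sites that were searched for in the 3′ UTRs of the 43 genes. Both lie on the minus strand of chromosome 7, miR-483-3p at 142654932 to 142654952 and miR-483-5p at 142654968 to 142654989 (RefSeq, GRCm38.p6).
mmu-miR-483-3p: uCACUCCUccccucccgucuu
mmu-miR-483-5p: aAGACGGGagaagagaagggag
The matching 7-base sites are AGGAGTG for miR-483-3p and CCCGTCT for miR-483-5p. Mir483 itself had 10 to 22 counts in the WT libraries and 0 in each Mir483Pat-KO library, which allows up to 3 counts per library. These polyA libraries read precursor or host transcript and not the mature microRNAs.

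Most of the amino acid and one-carbon genes had lower values in Mir483Pat-KO liver, by small amounts, and Aspg was the exception in size. Of the 42 tested, 38 had a log2 fold change below 0, which is 90.5%, against 49.1% of all genes tested. The median log2 fold change was −0.22, against 0.0042 for all genes. Of these 42, 5 fell and 0 rose at an adjusted p under 0.05 (edgeR quasi-likelihood test, adjusted over all genes tested), whereas 2.76% of all genes passed as lower and 2.43% as higher. With a fold change over 1.5 required in addition, Aspg was lower and 0 genes were higher, against 0.872% and 0.355% of all genes. The groups of libraries did not overlap for 5 genes that were lower (Aspg, Hpd, Uroc1, Cbs and Dmgdh) and for 0 that were higher, against 3.26% and 3.34% of all genes. An unadjusted p under 0.05 was reached by 23 of the 42 (54.8%) and by 22.2% of all genes. The count of 5 varied with the libraries in the fit, as did the share of all genes that passed as lower (1.35% to 3.34%). Of the 42 genes 1 passed without Mir483Pat-KO replicate 2 (1.58% of all genes), 2 without Mir483Pat-KO replicate 4 (1.35%), 3 without WT replicate 1, 3, 4 or 5 or Mir483Pat-KO replicate 3, 5 without Mir483Pat-KO replicate 5, and 7 without WT replicate 2 or Mir483Pat-KO replicate 1. The size of the values depends on the scaling. When libraries were scaled on hepatocyte marker genes, the median of all genes shifted to 0.16 and that of the 42 genes to −0.0649, so that 27 of 42 stayed below 0. Such a scaling moves all genes by about the same amount, and the gap between the medians therefore changes little by construction.

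**Figure D1:**
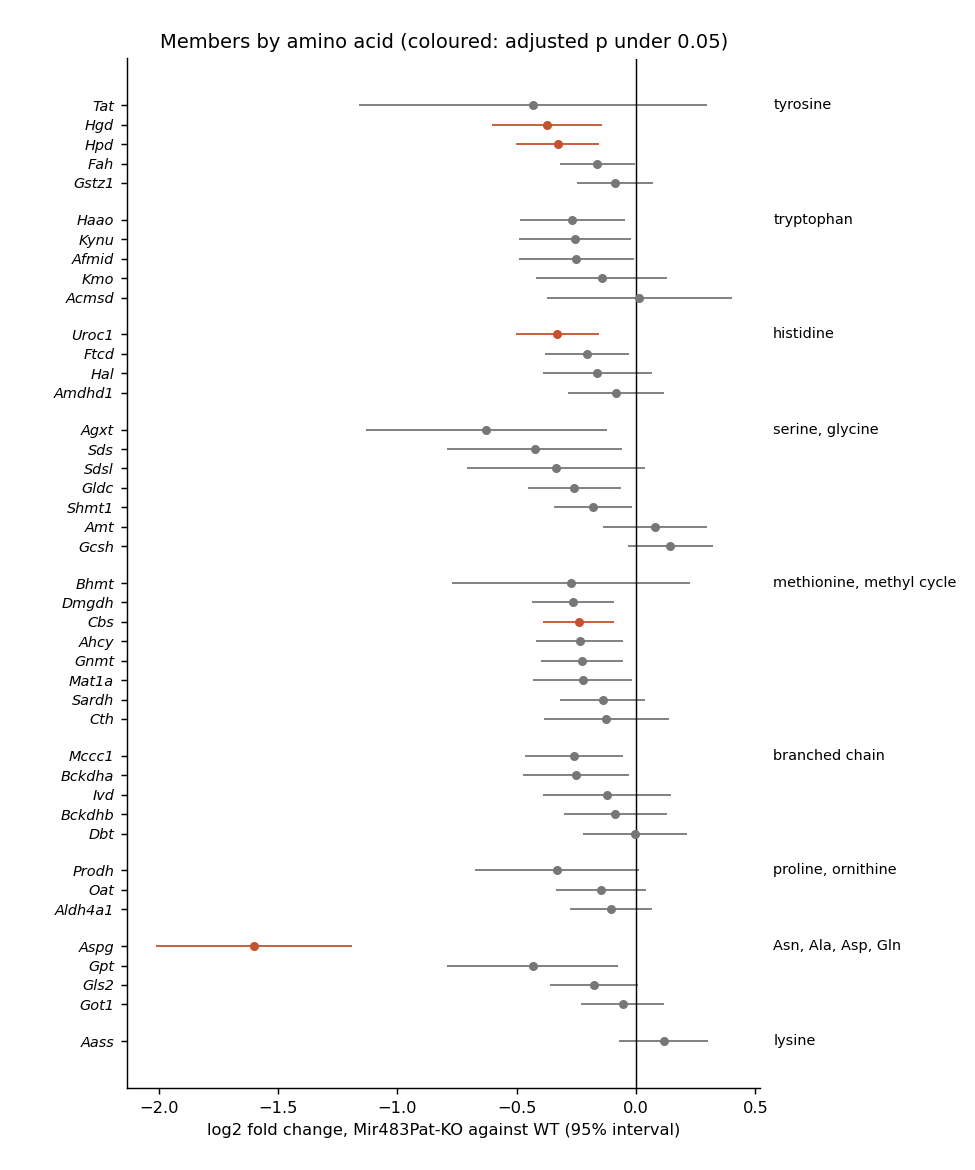
Log2 fold change of Mir483Pat-KO against WT for the 42 tested genes, arranged by the amino acid they act on, with points for the estimates, bars for 95% intervals and colour for an adjusted p under 0.05. Points for 38 of the 42 genes lie left of 0, the 5 coloured genes all do, and Aspg stands apart at −1.60.

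These livers are mixtures, and in bulk RNA fewer cells of a type and less RNA per cell cannot be told apart. The summed level of 14 hepatocyte markers, led by albumin (Alb), ranged from 244816 to 274509 CPM in WT and from 219957 to 252779 CPM in Mir483Pat-KO, so that the groups overlapped. In that list 13 of 14 markers had a log2 fold change below 0, with a median of −0.14, and 2 passed as lower. Erythroid markers summed to 17479 to 22175 CPM in WT and to 20430 to 28423 CPM in Mir483Pat-KO. Of these, 13 of 14 were above 0, with a median of 0.26, and 3 passed as higher. Cell cycle genes summed to 2022 to 2373 CPM in WT and to 2480 to 2621 CPM in Mir483Pat-KO, which did not overlap, and 3 of 8 passed as higher. Of 10 macrophage markers 2 passed as lower (median −0.14), and 0 genes of the neutrophil granule, megakaryocyte, B-lymphoid, endothelial, stellate and bile duct lists passed in either direction (with respective medians of 0.0103, −0.17, −0.0874, −0.14, −0.40 and −0.19). No marker was at 0 in every library. Log2 fold changes were also related to the GC content of transcripts, with a Spearman correlation of −0.44 over 14089 genes, which share the same 10 libraries. The interquartile range of GC content for the amino acid genes was 47.8% to 54.8%. The 5205 tested genes within that range had a median log2 fold change of −0.03, and 3.11% of them passed as lower. Aspg, at 58.1%, lay above that range. In single libraries, the correlation of log2 CPM relative to all libraries with GC content ran from −0.153 to 0.581 in WT. In Mir483Pat-KO it ran from −0.413 to 0.194. With offsets for GC content and length the median of the 42 genes was −0.20, 39 were below 0 and 8 passed as lower, against 2.75% of all genes. The part of cell composition in the results was not tested, and scaling on hepatocyte markers, which moves all genes together, does not test it.

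The libraries themselves differed in how low the genes were. Taking the mean log2 CPM of the 42 genes relative to the mean of all libraries, WT libraries lay at 0.291, 0.0659, 0.0885, 0.0162 and 0.119 and Mir483Pat-KO libraries at −0.114, −0.278, −0.0367, −0.0921 and −0.0602. Every Mir483Pat-KO library was thus lower than every WT library, and the extremes were WT replicate 1 and Mir483Pat-KO replicate 2. The closest were WT replicate 4 and Mir483Pat-KO replicate 3. Scores by amino acid overlapped except for asparagine, alanine and glutamine, the group with Aspg (0.123 to 0.523 in WT, −0.400 to −0.156 in Mir483Pat-KO). For methionine they were −0.0125 to 0.288 in WT and −0.395 to 0.0232 in Mir483Pat-KO. A score without Aspg was not computed. In Mir483Pat-KO replicate 2, 37 of the 42 genes were below their mean over the 10 libraries, against 6 in WT replicate 1. The sum over all 43 genes took 0.501% to 0.573% of the counts in WT and 0.411% to 0.494% in Mir483Pat-KO. Hepatocyte markers summed to 241352 CPM in Mir483Pat-KO replicate 2, above Mir483Pat-KO replicates 3 to 5. Alb alone held 113774 CPM of that sum, and single markers differed in order. In that library Hnf4a (307 CPM) was the lowest of all libraries, whereas Apoa1 (6839 CPM) was the highest of the Mir483Pat-KO libraries. The identification numbers in the labels fall into a lower range (WT replicates 1 to 4, Mir483Pat-KO replicates 1 and 2) and an upper range (the other 4 libraries). What a range marks is not stated. In the lower range alone the median log2 fold change of the genes was −0.25 and 40 of 43 were below 0, but 0 passed (edgeR, with 20 lower and 3 higher over all genes). With the range as a covariate 9 passed as lower, and so did 3.85% of all genes.

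**Figure D2:**
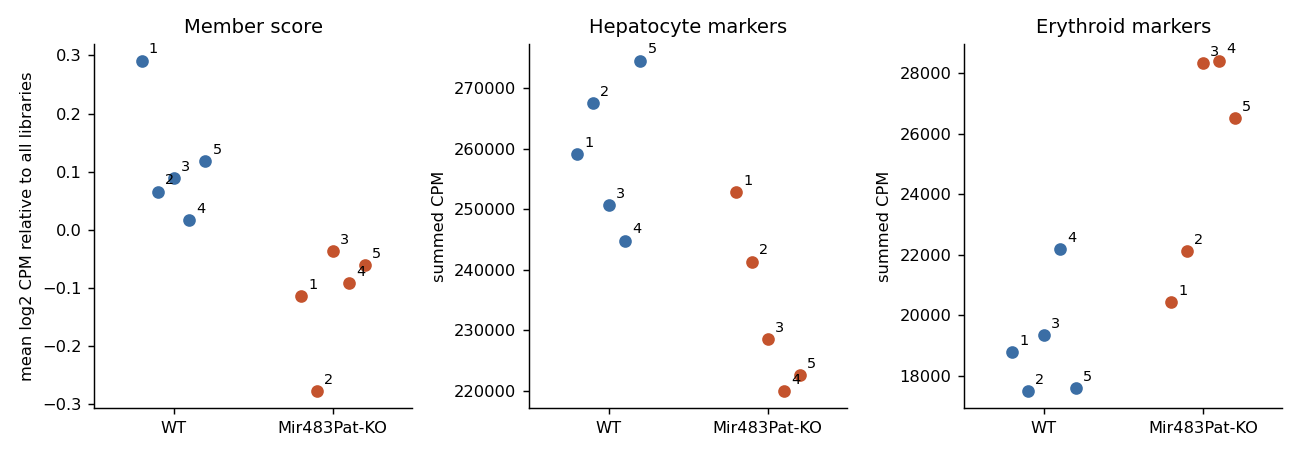
Each point is a library, numbered by replicate, in WT (blue) and Mir483Pat-KO (red). The left panel gives the mean log2 CPM of the 42 genes relative to all libraries, with every Mir483Pat-KO library below every WT library, and the other panels give the summed CPM of hepatocyte and erythroid markers, where the groups overlap.

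Aspg, which encodes an enzyme that splits asparagine into aspartate and ammonia, had by far the largest change of the 42. WT libraries held 16.3, 8.97, 9.30, 14.3 and 11.4 CPM and Mir483Pat-KO libraries 3.75, 4.44, 4.83, 3.34 and 3.42 CPM. The lowest WT library lay above the highest Mir483Pat-KO library, and the smallest count of the gene in any library was 37. The mean fell from 12.1 ± 3.20 to 3.96 ± 0.652 CPM (SD, n = 5 per group), which is 3.04-fold lower, with a log2 fold change of −1.60, a standard error of 0.178, a 95% interval from −2.01 to −1.19 and an edgeR adjusted p of 4.72e-04. Aspg (ENSMUSG00000037686) lies on the plus strand of chromosome 12, from 112106679 to 112127559 (GRCm38), and no other annotated gene shares its exons. It passed without each library in turn, with log2 fold changes from −1.70 to −1.48, and the fit on the lower range of identification numbers gave −1.58 with an adjusted p of 0.0527. When hepatocyte markers set the scale it still passed.

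The other genes of the aspartate, alanine and glutamine group did not pass. Gpt, the alanine aminotransferase of the cytosol, had a log2 fold change of −0.43 (standard error 0.156, adjusted p = 0.114), with 4 of 5 Mir483Pat-KO libraries below all WT libraries. Without Mir483Pat-KO replicate 5 it was −0.58 and passed (adjusted p = 0.0459). The liver-type glutaminase gene Gls2 was at −0.18 (adjusted p = 0.205). The cytosolic aspartate aminotransferase gene Got1 had the highest level per kb of exon in this group, 30.7 CPM per kb in WT. Its values were 74.9, 80.4, 81.04, 70.7 and 82.1 CPM in the WT livers and 74.6, 64.7, 83.6, 71.2 and 79.97 CPM in the Mir483Pat-KO livers, overlapping ranges with a log2 fold change of −0.06 (adjusted p = 0.709). Of 9 further genes around these amino acids, among them the synthetases of asparagine and glutamine, 0 passed, and their median log2 fold change was −0.03.

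Tyrosine breakdown runs from Tat through Hpd, Hgd and Gstz1 to Fah. All 5 genes had log2 fold changes below 0 (median −0.33), and the middle enzymes Hpd and Hgd fell. Hpd encodes the dioxygenase that makes homogentisate and was the most abundant gene of the group per kb of exon, 219 CPM per kb in WT and 174 in Mir483Pat-KO. Hpd (ENSMUSG00000029445) lies on the minus strand of chromosome 5, 123171807 to 123182727. Its libraries read 478, 460.1, 456, 438 and 499 CPM in WT, against 389.9, 329.8, 422, 378 and 336 CPM in Mir483Pat-KO, so that each Mir483Pat-KO library was below every WT library. The mean fell from 466 ± 22.99 to 371 ± 38.4 CPM, 1.26-fold, with a log2 fold change of −0.33, a standard error of 0.0761 and an adjusted p of 0.0220. This call was lost without Mir483Pat-KO replicate 2 (adjusted p = 0.0564) and without replicate 4 (0.0511). When hepatocyte markers set the scale the log2 fold change of Hpd was −0.17 (adjusted p = 0.170), and in the lower identification range alone it was −0.35 (0.152).

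Hgd encodes the next dioxygenase, which opens the ring of homogentisate (ENSMUSG00000022821, chromosome 16, 37580153 to 37632020, plus strand). WT libraries had 126, 80.7, 112, 110.0 and 109.6 CPM, and Mir483Pat-KO libraries had 92.05, 80.1, 75.2, 90.5 and 78.1 CPM. WT replicate 2 was as low as the Mir483Pat-KO libraries, and the other 4 WT libraries were above all of them. The log2 fold change was −0.37 (standard error 0.0998, adjusted p = 0.0417). Hgd passed when WT replicate 2 or Mir483Pat-KO replicate 1 was left out, but not without any other of the 10 libraries (adjusted p from 0.0635 to 0.0859). With the scale set by hepatocyte markers it was at −0.22 (adjusted p = 0.167). For Fah, the last enzyme, the log2 fold change was −0.16 (adjusted p = 0.172), and for Gstz1, the isomerase before it, −0.09 (adjusted p = 0.481). Exons on the other strand cover 12.2% of Gstz1. Tat, the first and rate-limiting step, ranged from 8.80 to 28.0 CPM in the WT livers and from 5.79 to 23.1 CPM in the others. Its log2 fold change of −0.43 had a standard error of 0.316, the largest of the 42 genes (adjusted p = 0.449). It was −0.15 without WT replicate 1 and −0.84 without Mir483Pat-KO replicate 3.

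**Figure D3:**
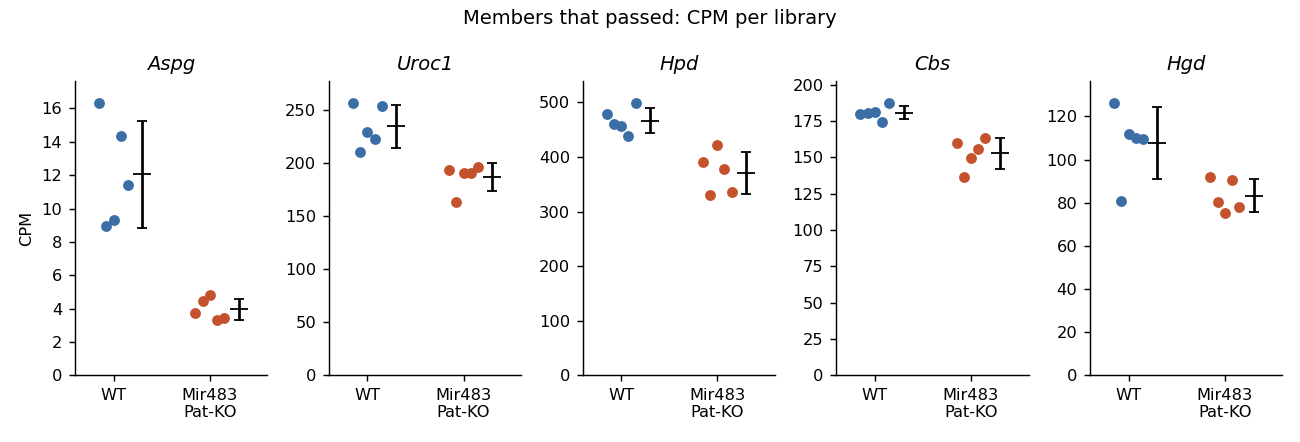
CPM per library of the 5 genes that passed, in WT (blue) and Mir483Pat-KO (red), with the mean and SD of 5 libraries beside each group and axes that start at 0. The groups are apart for Aspg, Uroc1, Hpd and Cbs, whereas WT replicate 2 of Hgd, at 80.7 CPM, lies among the Mir483Pat-KO libraries.

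The tryptophan pathway gave no gene that passed among its members. Tdo2, the dioxygenase that starts it, was nearly silent at this age, with 37, 1, 19, 11 and 10 counts in WT and 7, 3, 14, 5 and 2 counts in Mir483Pat-KO, too few to be tested. WT replicate 1 was highest and WT replicate 2 lowest, and the groups overlapped. Downstream, Haao, whose product leads to quinolinate and NAD, was the most abundant per kb of exon. Its values were 148, 102, 134, 135 and 135 CPM in the WT livers and 116, 106, 91.1, 121 and 110.3 CPM in the Mir483Pat-KO livers. WT replicate 2 was again low, and 1 Mir483Pat-KO library lay below all WT libraries (log2 fold change −0.27 with a standard error of 0.0953, adjusted p = 0.112). Without WT replicate 2 the log2 fold change was −0.35 and passed (adjusted p = 0.0203). Kynureninase (Kynu) was at −0.26 (adjusted p = 0.154), kynurenine formamidase (Afmid) at −0.25 (0.174) and the monooxygenase Kmo at −0.14 (0.512). Without WT replicate 1 the value of Kmo was −0.0169. Acmsd, which draws intermediates away from quinolinate, was at 0.01 (0.971). Exons of another gene on the same strand cover 44.2% of Afmid, so its count is uncertain. Among the other genes of the pathway, 2 of 4 tested fell, against 2.76% of all genes. The same 2 had groups that did not overlap, against 3.26% of all genes. Kyat3, a kynurenine aminotransferase, went from 61.8 CPM ± 3.09 to 42.0 CPM ± 4.87 (adjusted p = 0.00237, log2 fold change −0.56). Qprt, which turns quinolinate into an NAD precursor, was at −0.24 (adjusted p = 0.0448).

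In histidine breakdown, Uroc1 (urocanase, the second step) fell, and all 4 genes had log2 fold changes below 0. Uroc1 was also the most abundant of them per kb of exon, at 67.5 CPM per kb in WT and 53.8 in Mir483Pat-KO. Uroc1 (ENSMUSG00000034456) is on the plus strand of chromosome 6, 90333284 to 90364551. WT libraries read 257, 210.4, 229, 223 and 254 CPM and Mir483Pat-KO libraries 194, 163, 190.5, 190.2 and 196 CPM. The groups were apart, with Mir483Pat-KO replicate 2 the lowest. The log2 fold change was −0.33 (standard error 0.0752, adjusted p = 0.0209), and without that library it was −0.29 and did not pass (adjusted p = 0.0503). Nor did it pass when hepatocyte markers set the scale (−0.17, adjusted p = 0.194) or in the lower identification range alone (−0.37, 0.175). Ftcd, which passes the formimino group of histidine to folate, was at −0.20 (adjusted p = 0.129), with 4 of 5 Mir483Pat-KO libraries below all WT libraries. Histidine ammonia-lyase (Hal), the first step, was at −0.16 (0.353), and imidazolonepropionase (Amdhd1) at −0.09 (0.601). Neither of the 2 further histidine and folate genes tested passed.

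**Figure D4:**
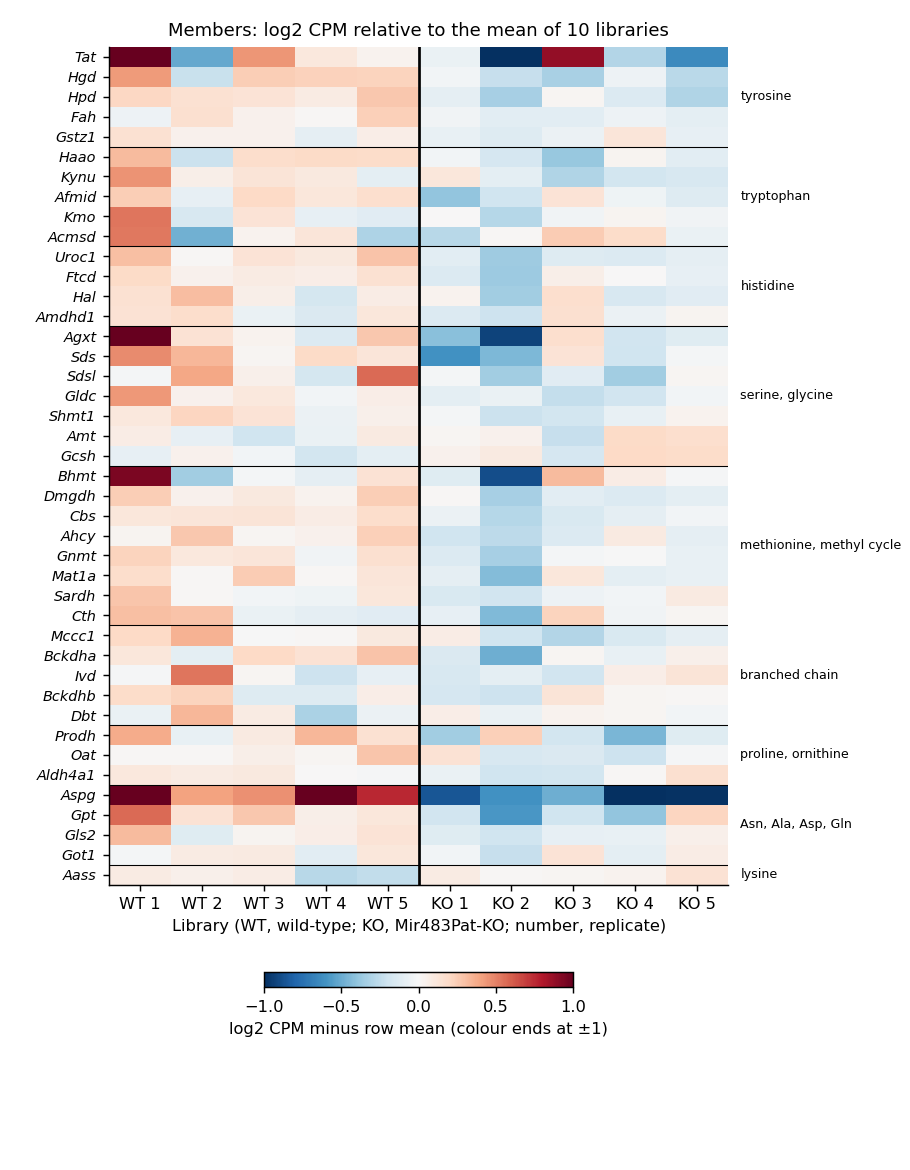
Log2 CPM of each of the 42 genes in each library minus the mean of the row over 10 libraries, in rows by amino acid, with red for above and blue for below the row mean and colours ending at ±1. Mir483Pat-KO replicate 2 is blue in 37 of 42 rows and WT replicate 1 in 6.

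Of the 7 serine and glycine genes, 5 had a log2 fold change below 0 and 2 above 0, and 0 passed. Glycine is split by a complex of which Gldc, Amt and Gcsh encode 3 parts, whose log2 fold changes differed in sign. Gldc, the decarboxylase subunit and the gene with the smallest p of the group, had 119, 90.7, 94.6, 86.2 and 92.2 CPM in WT, against 82.1, 83.7, 74.4, 76.8 and 86.2 CPM in Mir483Pat-KO. WT replicate 1 stood well above the rest, and 4 of 5 Mir483Pat-KO libraries were below all WT libraries (log2 fold change −0.26 with a standard error of 0.0842, adjusted p = 0.0836). Gcsh, the lipoyl carrier of the complex and the most abundant per kb of exon, had 56.7, 61.7, 58.8, 52.7 and 56.1 CPM in the WT livers and 61.8, 63.9, 53.2, 68.9 and 68.1 CPM in the Mir483Pat-KO livers. Here 4 of 5 Mir483Pat-KO libraries lay above all WT libraries, and the log2 fold change was 0.14 (standard error 0.0769, adjusted p = 0.286). It was 0.30 and passed when hepatocyte markers set the scale (adjusted p = 0.0350), where 14.78% of all genes passed as higher. Amt was at 0.08 (adjusted p = 0.659). The difference between these subunits was not tested.

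Agxt, the aminotransferase that converts glyoxylate to glycine, had the second largest log2 fold change of all 42 genes, −0.63, but with a standard error of 0.219 and an adjusted p of 0.104. Its values were 105, 51.5, 47.6, 42.4 and 56.2 CPM in WT, against 34.9, 24.4, 52.2, 40.8 and 42.8 CPM in Mir483Pat-KO. WT replicate 1 was far above all other libraries, and without it the log2 fold change was −0.35. The serine dehydratase Sds was at −0.43 (adjusted p = 0.129) and its homologue Sdsl at −0.34 (0.234), both at about 4 to 6 CPM. Exons on the other strand cover 29.6% of Sds. Shmt1, which moves a carbon from serine to folate in the cytosol, was at −0.18 (adjusted p = 0.150). Of 13 other serine and glycine genes tested, 1 fell (7.69%, against 2.76% of all genes). This was Glyctk, glycerate kinase, from 151 CPM ± 6.35 in WT to 107 CPM ± 13.9 (adjusted p = 0.00432, log2 fold change −0.50), 54.2% of whose exons are overlapped by genes on the other strand.

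All 8 genes of the methionine and methyl cycle were below 0, within a narrow range from −0.27 to −0.13. Cbs, which joins homocysteine to serine at the entry to transsulfuration, fell. The gene (ENSMUSG00000024039) is on the minus strand of chromosome 17, 31608894 to 31637238. WT libraries read 179.6, 181, 181, 175 and 188 CPM and Mir483Pat-KO libraries 159.9, 136, 149.8, 156 and 163 CPM. The WT values were close together, and all Mir483Pat-KO values were below them. The mean fell from 181 ± 4.65 to 153 ± 10.6 CPM (log2 fold change −0.24 with a standard error of 0.0644, adjusted p = 0.0416). Cbs kept its call without WT replicate 2, Mir483Pat-KO replicate 1 or Mir483Pat-KO replicate 5, and lost it without each of the others (adjusted p from 0.0508 to 0.0935). With the scale set by hepatocyte markers it was at −0.0835 (adjusted p = 0.513). Dmgdh, the dimethylglycine dehydrogenase of mitochondria, lay just outside the threshold (log2 fold change −0.26 with a standard error of 0.0749, adjusted p = 0.0513). Its groups did not overlap either, with 143, 124, 128, 123 and 142 CPM in the WT livers and 121, 95.4, 112, 109 and 112 CPM in the Mir483Pat-KO livers.

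Mat1a, which makes S-adenosylmethionine in liver, had the highest level per kb of exon of all 42 genes, 261 CPM per kb in WT and 224 in Mir483Pat-KO. Its values were 943, 842, 999, 842 and 907 CPM in WT, against 783, 619.6, 905, 781 and 795 CPM in Mir483Pat-KO. Mir483Pat-KO replicate 3 lay within the WT range and the other 4 below it (log2 fold change −0.22 with a standard error of 0.0899, adjusted p = 0.157). Gnmt, which uses up S-adenosylmethionine by methylating glycine, was at −0.23 (adjusted p = 0.0880), and Ahcy, which hydrolyses the S-adenosylhomocysteine that results, at −0.24 (0.0907). The betaine-dependent methyltransferase gene Bhmt was at −0.27 with a standard error of 0.216 (0.489). Bhmt had 363 CPM in WT replicate 1 against 148 to 209 CPM in the other WT libraries, and without that library its log2 fold change was −0.02. Sardh, the sarcosine dehydrogenase, was at −0.14 (0.306) and Cth, the second step of transsulfuration, at −0.13 (0.553).

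Among 27 further genes of methionine, sulfur and folate metabolism, 5 fell and 0 rose, and all 5 had groups that did not overlap. Aldh1l1, the cytosolic formyltetrahydrofolate dehydrogenase, went from 208 CPM ± 26.0 in WT to 144 CPM ± 15.4 (log2 fold change −0.53 with a standard error of 0.0932, adjusted p = 0.00544). Csad, which leads from cysteine to taurine, went from 313 CPM ± 38.2 to 219.6 CPM ± 22.6 (log2 fold change −0.51 with a standard error of 0.0904, adjusted p = 0.00563). The remaining 3 were Pemt, Cdo1 and Pipox, named here after their values were seen, with log2 fold changes of −0.42, −0.46 and −0.31. Cdo1 oxidises cysteine to the sulfinate on which Csad acts, Pemt consumes S-adenosylmethionine to make phosphatidylcholine, and Pipox oxidises sarcosine and pipecolate.

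Branched-chain amino acid genes were below 0 in 5 of 5, with a median of −0.12, and 0 passed. Mccc1, a subunit of the carboxylase of leucine breakdown, had 37.1, 41.2, 32.2, 32.6 and 34.6 CPM in the WT livers and 34.1, 28.2, 26.3, 29.1 and 30.4 CPM in the Mir483Pat-KO livers. Mir483Pat-KO replicate 1 lay within the WT range and the other 4 below it (log2 fold change −0.26 with a standard error of 0.0891, adjusted p = 0.0983). Without Mir483Pat-KO replicate 1 it was −0.32 and passed (adjusted p = 0.0453). Bckdha, Bckdhb and Dbt encode subunits of the branched-chain ketoacid dehydrogenase complex. Bckdha had 93.9, 81.2, 99.8, 96.3 and 106 CPM in WT, against 78.7, 62.04, 88.01, 82.6 and 90.2 CPM in Mir483Pat-KO, with Mir483Pat-KO replicate 2 lowest and a log2 fold change of −0.25 (adjusted p = 0.139). Exons of B3gnt8 on the other strand cover 61.7% of Bckdha. Bckdhb was at −0.09 (0.630), and Dbt was at −0.0044 (0.984), a value that changed sign in 7 of 21 other settings. Ivd, which acts on isovaleryl-CoA from leucine, was at −0.12 (0.574). WT replicate 2 had 193 CPM of Ivd against 115 to 134 CPM in the other WT libraries. Of 20 further genes of these pathways 0 passed.

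The genes of proline, ornithine and lysine did not pass. Prodh, the first step of proline oxidation, was scarce, with 7.19, 5.28, 5.94, 7.01 and 6.20 CPM in the WT livers and 4.37, 6.58, 4.90, 4.06 and 5.13 CPM in the Mir483Pat-KO livers. Mir483Pat-KO replicate 2 was within the WT range here, and the other 4 were below it (log2 fold change −0.33 with a standard error of 0.149, adjusted p = 0.204). Ornithine aminotransferase (Oat), the most abundant of the 3 per kb of exon, had 45.02, 44.8, 46.3, 45.2 and 53.97 CPM in WT, against 49.3, 39.9, 40.2, 38.6 and 44.3 CPM in Mir483Pat-KO (adjusted p = 0.303, log2 fold change −0.15). Aldh4a1, which completes proline oxidation, was at −0.11 (0.428), and a gene on the same strand covers 32.5% of its exons. Of 5 further proline genes, Prodh2, which starts the breakdown of hydroxyproline, fell from 154 CPM ± 9.55 to 126 CPM ± 12.8 with groups that did not overlap (adjusted p = 0.0381, log2 fold change −0.29). Aass, which begins lysine breakdown, had 71.5, 69.96, 71.1, 55.7 and 56.7 CPM in the WT livers and 71.5, 68.1, 68.5, 69.2 and 74.6 CPM in the Mir483Pat-KO livers (adjusted p = 0.424, log2 fold change 0.12). WT replicates 4 and 5 were low, and the other WT libraries were at the level of the Mir483Pat-KO libraries. Of 5 other lysine genes 0 passed.

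Taking the further genes of all these pathways, 10 of 89 tested fell and 0 rose, against 2.76% and 2.43% of all genes. This is 11.2%, and the share of the 42 genes that fell was 11.9%. Their median log2 fold change was −0.10, 62 were below 0, and 12 had groups that did not overlap, all lower, against 3.26% of all genes. When hepatocyte markers set the scale, 6 of these further genes (6.74%) passed as lower and 12 (13.5%) as higher, against 1.26% and 14.78% of all genes. Among 17 regulators of liver metabolism, 2 fell and 0 rose. Foxa2, a hepatic forkhead factor, went from 17.7 CPM ± 2.01 to 12.6 CPM ± 1.81 (adjusted p = 0.0201, log2 fold change −0.49). The glucagon receptor gene Gcgr was at −0.33 (adjusted p = 0.0491). The nuclear receptor gene Hnf4a was at −0.24 with groups that did not overlap (adjusted p = 0.0540), Cebpa at −0.24 (0.116), and the glucocorticoid receptor gene Nr3c1 at 0.26 (0.0882).

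Sites for miR-483-3p were present in the longest 3′ UTR of 9 of the 42 tested genes, 21.4%, against 12.6% of the 12875 tested genes with a 3′ UTR. The median length of the 3′ UTR was 800 bases for the 42 genes and 1184 for all. Sites for miR-483-5p were present in 0 of the 42 and in 3.28% of all. The sites of Cbs, the gene with a site that passed, of Tat, with the largest log2 fold change among the 9, and of Amt, the 1 with a value above 0, are shown with 7 bases on each side and the site in capitals.
Cbs: gtttgctAGGAGTGgtaccca
Tat: ctgacacAGGAGTGtcctctt
Amt: tccctccAGGAGTGtttctct
The other genes with a site were Bckdhb, Bhmt, Got1, Gstz1, Hal and Prodh. Of the 9 genes with a site, 1 fell and 0 rose, and of the 33 without a site, 4 fell and 0 rose. Over all genes 2.76% fell and 2.43% rose. The median log2 fold change of the 9 genes was −0.16, with a range from −0.43 to 0.08, and that of the 33 was −0.23. A site is a match of letters and does not show that the microRNA binds there.

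Promoters were compared because most of the genes had a log2 fold change of the same sign. RefSeq gave promoters for 35 of the 43 genes, from 250 bases before to 50 after the start of transcription. These were searched on both strands for short motifs of liver regulators and for TATAAA, the letters of the general TATA box. The glucocorticoid receptor core ACANNNTGT was in 6 of 35 genes (17.1%, Bckdhb, Bhmt, Gnmt, Hal, Ivd and Tdo2) and in 5.43% of 10622 tested genes. The C/EBP motif TTGCNNAA was in 3 (8.57%, Aass, Hal and Hgd) and in 10.7% of all, and TATAAA was in 4 (11.4%, Ftcd, Hal, Hgd and Tdo2) and in 9.28% of all. The HNF4 motif CAAAGTCCA and the HNF1 motif GTTAATNAT were in 0 of 35, and in 0.659% and 0.753% of all. None of these motifs overlapped another in the sequences shown. The promoter of Hgd, the 1 gene that passed and held a motif, is at chr16:37579903-37580202 on the plus strand, and that of Aspg, which had the largest change and held none, is at chr12:112106433-112106732 on the plus strand (GRCm38.p6). Capitals in Hgd mark, from left to right, TATAAA and 2 matches of the C/EBP motif, all 3 on the other strand.
Hgd: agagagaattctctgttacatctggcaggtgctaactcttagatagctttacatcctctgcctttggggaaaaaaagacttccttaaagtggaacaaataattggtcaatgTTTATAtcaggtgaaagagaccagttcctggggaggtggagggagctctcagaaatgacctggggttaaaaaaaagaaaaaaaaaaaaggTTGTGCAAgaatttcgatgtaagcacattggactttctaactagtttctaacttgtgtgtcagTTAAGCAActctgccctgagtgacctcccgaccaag
Aspg: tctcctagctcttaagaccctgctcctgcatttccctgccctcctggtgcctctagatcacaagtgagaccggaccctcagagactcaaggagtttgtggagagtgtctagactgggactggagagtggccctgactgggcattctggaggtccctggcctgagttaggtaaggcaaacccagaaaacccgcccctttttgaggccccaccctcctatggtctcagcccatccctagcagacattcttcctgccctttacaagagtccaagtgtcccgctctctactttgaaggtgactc
Such matches are descriptions of the letters in these windows.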

How the data were processed

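From polyA RNA the authors prepared stranded libraries, read them from both ends and aligned them to GRCm38 with STAR, which also gave a count for each Ensembl gene. These raw counts were deposited without normalization. The strand setting and the rule for reads that map to several places are not given in the sources used here. Groups and replicate numbers came from the sample labels. Whether the fetuses of a group shared a litter is not stated. The fit treated the fetuses as independent, without a term for litter. The p-values rest on the spread between these fetuses and could be too small if fetuses of a group shared a litter.

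The counts were fitted with edgeR 4.0.16 (R 4.3.3), using filterByExpr at its defaults, TMM scaling and the quasi-likelihood F-test of genotype, without covariates. Benjamini-Hochberg adjustment covered the 14098 genes tested, and a gene passed at an adjusted p under 0.05. The common biological coefficient of variation was 0.111. Standard errors were worked back from the log2 fold change and the F statistic. The 95% intervals used 8 residual degrees of freedom, fewer than the test itself uses. An interval can therefore include 0 at an unadjusted p under 0.05, as for Prodh. Symbols, exons and 3′ UTRs came from the GENCODE annotation of GRCm38 (55141 of 55401 identifiers had a symbol, and 1 marker symbol was not found), and microRNA and promoter sequences from RefSeq (GRCm38.p6). CPM per kb divides by the length of all annotated exons. The score of a library is the mean log2 CPM (prior count 2). Limits on a count of 0 cover counting error only. No 2 replicates were alike within sampling noise (the smallest chi-square was 4.54 per degree of freedom), so each library was counted once. The procedure was tested on simulated data.

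The 43 genes and the lists of further pathway genes, regulators and markers were chosen with earlier results of these data known. CPM per library was given for genes past a 1.5-fold change and, per amino acid, for the gene with the smallest p and that with the highest CPM per kb. Hgd, Agxt and Dmgdh were added after their values were seen. Up to 2 passing genes per amino acid were named among the further genes, with Pemt, Cdo1 and Pipox added after their values were seen, and of the regulators those that passed plus Hnf4a, Cebpa and Nr3c1. For 1 further gene, withheld for evaluations, no result is reported here. Alternatives were RLE size factors, scaling on hepatocyte markers, DESeq2 1.42.0, limma-voom (limma 3.58.1), the robust fit, other count filters, glmTreat, a replicate block, a covariate for the identification number range, that range's lower part alone, GC content and length offsets, and each library left out in turn. Figures were drawn with Python 3.11.15 and matplotlib 3.10.9.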

Additional observations from a re-analysis of the deposited data

Results flagged for a closer look

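Of 84 groups of 5 libraries (42 genes in 2 genotypes), 8 held a library far from the other 4 by Dixon's criterion, which chance meets in about 1 group in 20. WT replicate 1 was the highest of its group for Agxt (105 CPM, next 56.2), Bhmt (363 CPM, next 209) and Gldc (119 CPM, next 94.6). WT replicate 2 was the highest for Ivd (193 CPM, next 134), and WT replicate 5 for Oat (53.97 CPM, next 46.3). Mir483Pat-KO replicate 2 was the lowest of its group for Uroc1 (163 CPM, next 190.2) and for Kmo (22.6 CPM, next 26.8), and Mir483Pat-KO replicate 4 was the highest for Gstz1 (231 CPM, next 204).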

How the results depend on the processing

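Aspg passed in 20 of 21 alternatives, Uroc1 in 18, Hpd in 17, Cbs in 11 and Hgd in 10, and Dmgdh passed in 11. With scaling on hepatocyte markers 1 of the 42 genes passed as lower and 1 as higher, and 6 further pathway genes passed as lower and 12 as higher, against 1.26% and 14.78% of all genes. The median log2 fold change was then −0.0649 for the 42 and 0.16 for all genes, and the 11 genes that had lain below 0 and closest to it came out above it, namely Gstz1 (0.0717), Kmo (0.0111), Amdhd1 (0.0762), Sardh (0.0220), Cth (0.0363), Bckdhb (0.0761), Dbt (0.154), Ivd (0.0426), Aldh4a1 (0.0517), Oat (0.00554) and Got1 (0.103), none of which passed in either scale. DESeq2 passed 9 genes as lower (4.32% of all genes), the range covariate 9 (3.85%) and the GC content and length offsets 8 (2.75%). Replicate numbers did not pair the libraries (mean correlation of same-numbered deviations 0.0871, 2 of 5 pairs over 0.1), and the fit with the replicate block passed 8 of the 42 as lower (4.23% of all genes). With the block 16.9% of the further genes passed as lower and 3 (3.37%) as higher, against 5.26% of all genes as higher. The range covariate gave 1 further gene higher (1.12%, against 4.58% of all genes) and 13.5% of them lower (against 3.85%). With no count filter 2 genes passed with a 1.5-fold change, Agxt (log2 fold change −0.63) besides Aspg, and Cbs lost its call (adjusted p = 0.0645). In that fit 2 further genes were higher (2.15%, against 2.23% of all genes) and 12.9% of them were lower (against 2.20%). The lower identification range alone (4 WT and 2 Mir483Pat-KO libraries) gave 0 of the 42 past either threshold and 0 further genes. Leaving out each library gave 1 to 7 genes lower, 0 to 1 further genes higher (against 0.611% to 2.74% of all genes) and a median from −0.26 to −0.17. Dbt was above 0 with voom (0.0105), the block (0.00847) and the covariate (0.00716), and ranged from −0.0840 (WT replicate 4 left out) to 0.0836 (WT replicate 2) when libraries were left out. Acmsd was below 0 in the lower range (−0.22), with the offsets (−0.0844), and ranged from −0.0879 (WT replicate 2 left out) to 0.159 (WT replicate 1). Ivd ranged from −0.192 (WT replicate 4 left out) to 0.0159 (WT replicate 2). The causes of these changes were not tested. Genes at a few CPM, such as Prodh, Sds, Sdsl and Acmsd, had standard errors of 0.149 to 0.168, so that changes of the size seen for Hpd could not be told from 0 there.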
